A study of Mus musculus with 36 samples.

Results

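The 10 genes described here mark macrophages of the mouse liver and were followed across 12 liver RNA libraries. They were chosen by name from a table of 136300 genes, with earlier results of these data known. Of these 10 genes, 5 mark resident Kupffer cells (Clec4f, Vsig4, Timd4, Marco and Cd5l), 4 mark recruited or lipid-associated macrophages (Trem2, Gpnmb, Cd68 and Ccr2), and Adgre1 is common to both kinds of cell. All 10 passed the filter on low counts and are among the 23875 genes tested.

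Kupffer cells are the macrophages that line the liver sinusoids, where they take up particles, dying cells and complement-coated microbes from portal blood. They are seeded before birth and renew themselves in place. When they are lost, or when hepatocytes are injured or loaded with lipid, monocytes that carry CCR2 enter the liver along CCL2 and related chemokines, and some become macrophages rich in TREM2, GPNMB and CD68, known as lipid-associated macrophages. Recruited cells can take on a Kupffer cell program with time, and TIMD4 is among the last of its markers to appear, so the markers describe states more than fixed lineages.

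Polyadenylated RNA was sequenced from livers of male mice 4 weeks old, killed at ZT14, soon after lights off. There were 4 groups of 3 libraries: WT fed ad libitum, WT fasted for 24 h, Vps15LKO fed ad libitum and Vps15LKO fasted for 24 h. The mutants are labelled Ttr CRE+, Vps15f/f (the design text writes Vps15iLKO), so they carry floxed Vps15 alleles and a Cre driven by the transthyretin promoter, which is active in hepatocytes. The labels do not say whether WT mice carried floxed alleles or Cre. Pik3r4, which encodes VPS15, a regulatory subunit of the class III phosphatidylinositol 3-kinase of endosomes and autophagy, had 23.1, 17.6 and 22.9 CPM (counts scaled to the same library total with edgeR's TMM factors) in fed WT, 21.0, 24.7 and 21.2 in fasted WT, 24.6, 22.2 and 25.3 in fed Vps15LKO and 21.1, 24.0 and 18.2 in fasted Vps15LKO. The labels do not give the deleted exons, so this gene total does not check the deletion.

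Libraries held 9110836 to 12870944 counts. The labels name hepatocytes, but whole frozen liver was powdered. Summed CPM of 10 hepatocyte markers was 33681 to 35823 in fed WT, 42005 to 44331 in fasted WT, 14163 to 16088 in fed Vps15LKO and 15057 to 17499 in fasted Vps15LKO, and markers of endothelial, stellate and immune cells were present in every group. Mitochondrial transcripts took 2.01 to 2.65% of counts in Vps15LKO and 3.29 to 3.65% in WT. In such bulk RNA, fewer cells of a type and less RNA per cell cannot be told apart. Whether the libraries of a group come from separate mice is not stated further, so p-values measure the spread between these libraries.

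Promoter sequences from RefSeq (GRCm38.p6, the mm10 build) are shown for 5 members. Whether the marked motifs play a part in the members' changes was not tested. The table held 9 of the 10 members, all but Adgre1. Windows ran from 250 bases before to 50 bases after the start of the gene, and both strands were searched. Among resident genes, capitals mark GGAAGT, the core of ETS family sites. It was found in 23.8% of 32851 promoters and in 4 of the 9 members: Clec4f, Vsig4, Timd4 and Cd68. The 250 bases upstream of Vsig4 (chrX:96293439-96293688, minus strand) and Timd4 (chr11:46810549-46810798, plus strand) read as follows.
Vsig4: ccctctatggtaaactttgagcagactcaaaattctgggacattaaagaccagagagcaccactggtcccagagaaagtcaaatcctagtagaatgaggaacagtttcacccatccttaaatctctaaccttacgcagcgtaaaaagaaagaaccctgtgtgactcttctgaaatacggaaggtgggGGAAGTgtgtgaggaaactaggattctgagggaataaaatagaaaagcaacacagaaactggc
Timd4: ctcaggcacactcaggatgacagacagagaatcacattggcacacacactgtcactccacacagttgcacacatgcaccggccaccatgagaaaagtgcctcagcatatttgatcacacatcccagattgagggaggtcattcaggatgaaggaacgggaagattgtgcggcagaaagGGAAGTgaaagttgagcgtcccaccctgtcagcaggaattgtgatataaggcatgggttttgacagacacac
In recruited or lipid-associated genes, capitals mark TGANTCA, an AP-1 element. It was found in 7.81% of all promoters and in 3 of the 9 members: Trem2, Gpnmb and, with 2 matches, Cd68. The sequences are the 250 bases upstream of Trem2 (chr17:48346151-48346400, plus strand) and Cd68 (chr11:69666171-69666420, minus strand), and the site of Gpnmb (chr6:49036516-49036542, plus strand), whose match begins 9 bases after the RefSeq start.
Trem2: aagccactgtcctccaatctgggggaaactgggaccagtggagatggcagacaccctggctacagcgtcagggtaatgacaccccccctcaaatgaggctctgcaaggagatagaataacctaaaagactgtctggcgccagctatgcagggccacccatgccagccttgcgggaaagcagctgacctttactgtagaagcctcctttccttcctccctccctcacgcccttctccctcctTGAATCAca
Cd68: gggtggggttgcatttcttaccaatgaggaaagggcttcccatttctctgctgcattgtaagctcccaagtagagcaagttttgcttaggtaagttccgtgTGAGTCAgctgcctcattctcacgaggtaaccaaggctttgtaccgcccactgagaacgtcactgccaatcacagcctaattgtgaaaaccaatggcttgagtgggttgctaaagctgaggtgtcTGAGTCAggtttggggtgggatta
Gpnmb: caggggcaagTGACTCAtgagcacgag
The E-box CACGTG of the MITF and TFE family was found in 7.15% of promoters and in 0 of the 9 members. Matches of the searched motifs did not overlap each other in these members. They are matches of letters, not measured sites, and the motifs were chosen after the sequences had been read.

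Clec4f (chromosome 6, 83644542 to 83656187) encodes a C-type lectin found in the mouse almost solely on Kupffer cells. Its transcript stood at 162, 208 and 213 CPM in fed WT, 62.4, 83.0 and 88.5 in fasted WT, 337, 311 and 342 in fed Vps15LKO and 205, 322 and 204 in fasted Vps15LKO. Fasted WT libraries were the lowest of all 12 and fed Vps15LKO libraries were high, while fasted Vps15LKO library b lay among the fed ones.

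Vsig4 (X, 96247203 to 96293438) encodes CRIg, a complement receptor through which Kupffer cells bind opsonized particles. It was at 84.8, 112 and 111 CPM in fed WT, 30.0, 42.5 and 39.9 in fasted WT, 180, 132 and 164 in fed Vps15LKO and 117, 150 and 111 in fasted Vps15LKO. Fasted WT was again below every other library, and the fed and fasted Vps15LKO libraries overlapped.

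Timd4 (11, 46810800 to 46844332) encodes TIM4, a receptor for phosphatidylserine on dying cells. Its values were 40.2, 43.3 and 36.5 CPM in fed WT, 10.4, 18.0 and 13.5 in fasted WT, 63.7, 57.8 and 65.4 in fed Vps15LKO and 39.8, 55.4 and 43.3 in fasted Vps15LKO. Fasted Vps15LKO overlapped fed WT, and fed Vps15LKO was above both.

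Marco (1, 120474538 to 120505024) encodes a class A scavenger receptor for bacteria and particles. It was at 108, 102 and 65.3 CPM in fed WT, 11.7, 25.4 and 13.9 in fasted WT, 133, 194 and 175 in fed Vps15LKO and 189, 130 and 144 in fasted Vps15LKO. The Vps15LKO groups overlapped and lay above fed WT, which lay above fasted WT.

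Cd5l (3, 87357881 to 87371073) encodes AIM, a protein that macrophages secrete into blood. Its values were 281, 307 and 331 CPM in fed WT, 96.4, 136 and 127 in fasted WT, 574, 600 and 679 in fed Vps15LKO and 393, 511 and 353 in fasted Vps15LKO. The 4 groups did not overlap for this gene.

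Trem2 (17, 48346401 to 48354147) encodes a receptor for lipids and lipoproteins that signals through TYROBP. It was low in WT, at 1.97, 1.74 and 2.55 CPM fed and 0.902, 1.00 and 0.962 fasted, which rested on 7 to 8 counts per fasted library. It stood at 18.6, 20.8 and 22.6 CPM in fed Vps15LKO and 15.7, 12.9 and 10.8 in fasted Vps15LKO, far above every WT library.

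Gpnmb (6, 49036546 to 49070929) encodes a membrane glycoprotein of lysosomes and the cell surface. It was at 2.18, 4.36 and 6.21 CPM in fed WT and 1.55, 0.877 and 0.962 in fasted WT, the latter from 7 to 12 counts per library. In Vps15LKO it reached 360, 167 and 425 CPM fed and 356, 213 and 235 fasted. The mutant groups overlapped, with the lowest value in fed library b, and no WT library came near them.

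Cd68 (11, 69664213 to 69666153) encodes macrosialin, a glycoprotein of late endosomes and lysosomes that is abundant in macrophages in general. Its values were 82.4, 107 and 104 CPM in fed WT, 27.3, 35.2 and 37.1 in fasted WT, 388, 420 and 495 in fed Vps15LKO and 735, 584 and 680 in fasted Vps15LKO. It was the only member whose fasted Vps15LKO libraries all lay above the fed ones.

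Ccr2 (9, 124101950 to 124113557) encodes the CCL2 receptor of inflammatory monocytes. It was at 3.53, 2.73 and 2.65 CPM in fed WT, 1.03, 1.25 and 0.412 in fasted WT, 9.13, 16.0 and 20.4 in fed Vps15LKO and 6.91, 7.56 and 5.24 in fasted Vps15LKO. Fasted WT libraries held 3 to 10 counts each, and the 4 groups did not overlap.

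Adgre1 (17, 57358691 to 57483527) encodes F4/80, the surface protein by which mouse macrophages are usually sorted. It stood at 47.4, 59.3 and 56.7 CPM in fed WT, 10.8, 19.9 and 15.3 in fasted WT, 84.9, 75.8 and 82.3 in fed Vps15LKO and 48.7, 64.5 and 38.5 in fasted Vps15LKO. Fasted Vps15LKO overlapped fed WT, as it did for Clec4f, Vsig4 and Timd4.

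**Figure D1:**
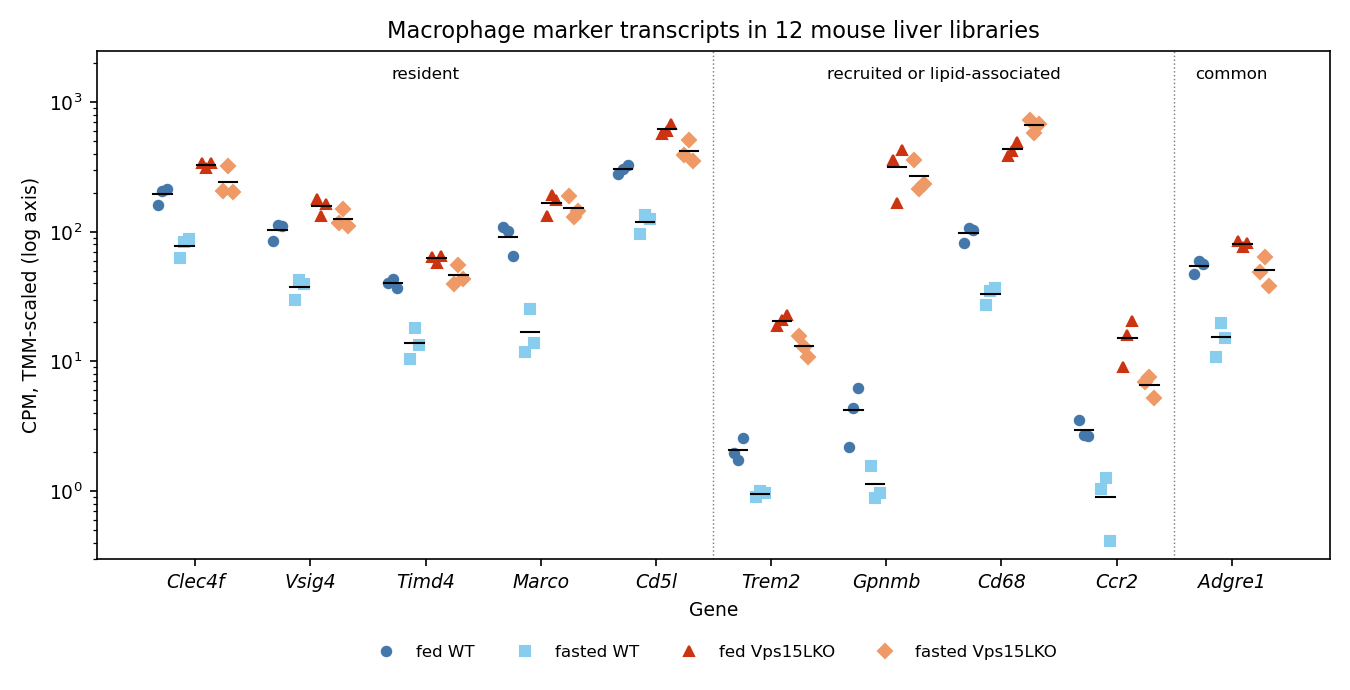
CPM (log axis) of the 10 genes in each library; points are libraries, bars are group means, and dotted lines separate resident, recruited or lipid-associated and common genes. Fasted WT is lowest for every gene, and the widest gap between WT and Vps15LKO is that of Gpnmb.

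Levels were compared between genes per length, as RPKM (TMM-scaled CPM divided by kilobases of merged exons). In fed WT, Cd5l ranked first at 150 ± 12.1 RPKM (SD, n = 3), followed by Clec4f at 78.7 ± 11.3, Cd68 at 77.9 ± 10.8 and Vsig4 at 69.1 ± 10.4, which overlapped. Gpnmb, Ccr2 and Trem2 were last at 0.653 ± 0.310, 0.439 ± 0.0725 and 0.422 ± 0.0834 RPKM and overlapped too. The same 3 genes were last in fasted WT, at 0.133 to 0.193 RPKM. In fed Vps15LKO, Cd68 led at 346 ± 43.8 RPKM and overlapped Cd5l at 303 ± 26.9. In fasted Vps15LKO, Cd68 at 530 ± 60.9 RPKM did not overlap Cd5l at 206 ± 40.3. Gpnmb ranked sixth in both mutant groups, at 48.7 ± 20.6 RPKM fed, where it overlapped Timd4 at 28.7 ± 1.85, and at 41.1 ± 11.8 fasted, where it did not overlap the next gene, while Trem2 and Ccr2 stayed last.

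The first comparison asked how 24 h of fasting changed these genes in WT liver. All 10 fell, where 14% of the tested genes fell (edgeR's quasi-likelihood test, Benjamini-Hochberg adjusted p under 0.05). Marco fell most, by 2.43 on the log2 scale (SE 0.270, adjusted p = 1.29e-05). Other resident genes fell by 1.32 (Clec4f, SE 0.183), 1.36 (Cd5l, SE 0.158), 1.45 (Vsig4, SE 0.173) and 1.51 (Timd4, SE 0.177). Adgre1 fell by 1.83 (SE 0.208), Cd68 by 1.56 (SE 0.156), Ccr2 by 1.69 (SE 0.436), Trem2 by 1.12 (SE 0.299, adjusted p = 0.0118) and Gpnmb by 1.90 (SE 0.572, adjusted p = 0.0228). The median change was -1.45 for resident and -1.63 for recruited or lipid-associated genes, beside -0.01 for all tested genes. Fed and fasted libraries did not overlap for any of the 10, as for 41.8% of tested genes. The call for Gpnmb was lost without fed WT b or c or fasted WT b or c (adjusted p 0.0523 to 0.0968), and that for Trem2 without fed WT c (adjusted p = 0.0575).

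In Vps15LKO liver, fasting changed 1 of the 10 past the threshold. Ccr2 fell by 1.21 (log2, SE 0.265, adjusted p = 0.0394), where 0.599% of tested genes fell and 1.39% changed either way. Of the resident genes 0 of 5 passed with edgeR, 3 had an unadjusted p under 0.05 and 1 passed with DESeq2. Their log2 differences were -0.44 (Clec4f), -0.34 (Vsig4), -0.43 (Timd4), -0.12 (Marco) and -0.56 (Cd5l). Cd68 differed the other way, at 0.62 (SE 0.147, adjusted p = 0.0516, and 0.000261 to 0.196 over all alternatives), while Trem2 was at -0.66 (adjusted p = 0.0543), Adgre1 at -0.68 (adjusted p = 0.0796) and Gpnmb at -0.24 (adjusted p = 0.720). Fed and fasted libraries did not overlap for Timd4, Cd5l, Trem2, Cd68, Ccr2 and Adgre1, beside 22% of tested genes. Cd68 passed with DESeq2, with no filter, with Ensembl genes alone, with robust moderation, and without fed WT a, fasted WT a or fasted Vps15LKO b. This comparison turned on single libraries: without fasted Vps15LKO b, 5 members passed, and without fed WT c, fasted WT b, fed Vps15LKO b or c, or fasted Vps15LKO a or c, 0 did. The call for Ccr2 was also lost without fasted WT a, and its adjusted p ran from 6.09e-06 to 0.200 over all alternatives.

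The difference between the genotypes in their fasting response was tested as an interaction. It passed for 7 of the 10, all toward a smaller fall or a rise in Vps15LKO, where it passed upward for 6.35% of tested genes. The log2 difference was 2.31 for Marco (SE 0.358, adjusted p = 0.000792), 2.18 for Cd68 (SE 0.214, adjusted p = 2.69e-05), 1.15 for Adgre1 (SE 0.278), 1.12 for Vsig4 (SE 0.237), 1.08 for Timd4 (SE 0.238), 0.88 for Clec4f (SE 0.253) and 0.80 for Cd5l (SE 0.218). It did not pass for Gpnmb (1.66, SE 0.652), Ccr2 (0.49, SE 0.516) or Trem2 (0.47, SE 0.339), whose fasted WT libraries held 3 to 12 counts each. Of the 8 pan-macrophage genes used below as a scale, 7 passed upward as well. Their median was 1.17, beside 1.10 for the 10 members, so the difference was not particular to the members. The interaction was not tested on the scale of those 8 genes. The call for Clec4f was lost without fed WT b or c, fasted WT a, fed Vps15LKO a, b or c, or fasted Vps15LKO b (adjusted p 0.0543 to 0.0765), and that for Cd5l without fed WT b or c, fasted WT a, fed Vps15LKO a or fasted Vps15LKO b (adjusted p 0.0533 to 0.0643).

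**Figure D2:**
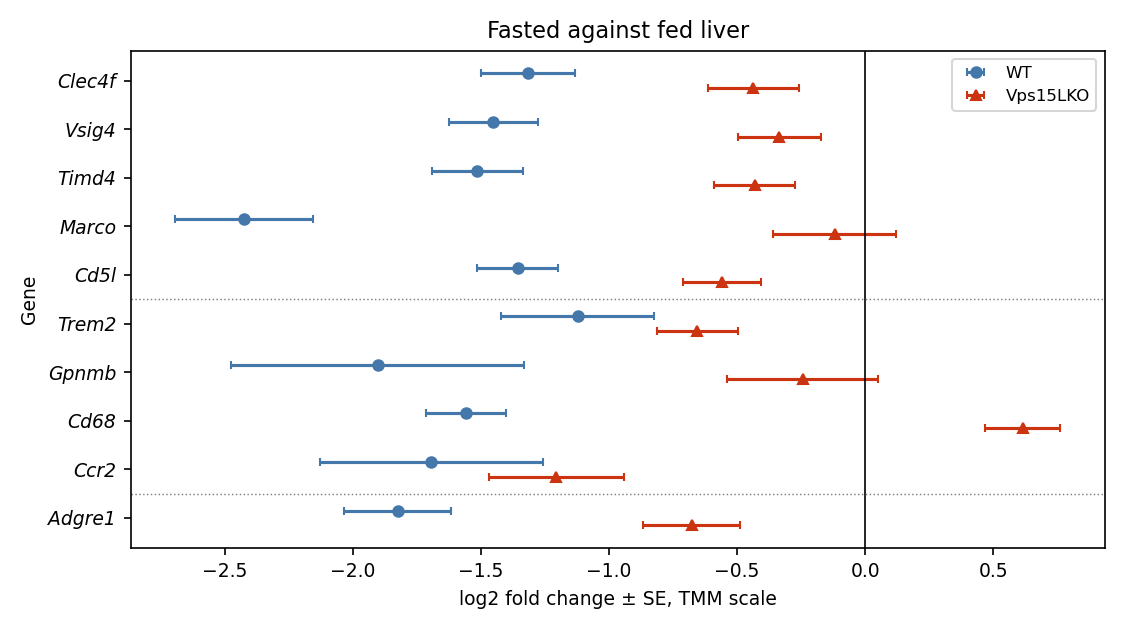
Log2 fold change of fasted against fed liver for each gene, in WT (circles) and Vps15LKO (triangles), with standard errors from the edgeR fit. WT values lie between -2.43 and -1.12, and Vps15LKO values between -1.21 and 0.62, with Cd68 the only one above 0.

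The next comparison set Vps15LKO against WT in fed livers. All 10 genes were higher in Vps15LKO, where 23.4% of tested genes were. Gpnmb was higher by a log2 of 6.22 (SE 0.397, 74.4-fold), Trem2 by 3.30 (SE 0.199, 9.83-fold), Ccr2 by 2.35 (SE 0.299, 5.10-fold) and Cd68 by 2.15 (SE 0.154, 4.44-fold). The resident genes differed less, from 0.63 for Vsig4 (SE 0.165, adjusted p = 0.00546) and 0.64 for Timd4 (SE 0.162) to 0.76 for Clec4f (SE 0.179), 0.87 for Marco (SE 0.244) and 1.01 for Cd5l (SE 0.155). Adgre1 was higher by 0.57 (SE 0.189, adjusted p = 0.0216). The medians were 0.76 for resident and 2.82 for recruited or lipid-associated genes, and 0.01 for all tested genes. Groups did not overlap for any of the 10, as for 56.5% of tested genes. The call for Adgre1 was lost without fed WT a (adjusted p = 0.0838), fed Vps15LKO a (0.0585) or fed Vps15LKO c (0.0522), and ranged from 0.000697 to 0.0838 over all alternatives.

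In fasted livers all 10 genes were again higher in Vps15LKO, where 28.2% of tested genes were. Gpnmb differed by a log2 of 7.88 (SE 0.469), Cd68 by 4.33 (SE 0.171), Trem2 by 3.76 (SE 0.239) and Ccr2 by 2.84 (SE 0.390). Marco, at 3.18 (SE 0.274), was above the other resident genes, which ranged from 1.65 for Clec4f (SE 0.184) to 1.81 for Cd5l (SE 0.159). Adgre1 differed by 1.72 (SE 0.206). Adjusted p-values ran from 3.11e-10 for Cd68 to 1.72e-05 for Ccr2, and every call held in each alternative run. The medians were 1.75 for resident and 4.05 for recruited or lipid-associated genes, beside 0.01 for all tested genes. Groups did not overlap for any member, as for 61.7% of tested genes. The comparisons share libraries: fasted WT, the lowest group for each of the 10 genes, enters this one and the fasting comparison in WT.

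Hepatocyte markers were lower in Vps15LKO, 9 of 10 in fed and 10 of 10 in fasted liver, with medians of -1.26 and -1.36. Of 23875 tested genes, 5483 and 6700 were lower. Vps15LKO libraries also held more counts (11642585 to 12870944, against 9110836 to 10856930 in WT). The part of these differences in the members' changes was not tested. To set the members beside macrophage RNA in general, libraries were scaled a second way, to equal geometric mean CPM of 8 pan-macrophage genes, of which 7 are named here: C1qa, C1qb, C1qc, Csf1r, Ctss, Aif1 and Fcgr1. On the TMM scale these 7 fell with fasting in WT and were higher in fasted Vps15LKO than in fasted WT. The second scale was also run with the 7 alone.

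On the pan-macrophage scale, 4 of the 10 members were higher in fed Vps15LKO than in fed WT, where 8.46% of tested genes were, and these 4 were the recruited or lipid-associated genes. Gpnmb differed by a log2 of 5.68 (SE 0.374), Trem2 by 2.75 (SE 0.293), Ccr2 by 1.78 (SE 0.321) and Cd68 by 1.61 (SE 0.235). As a share of the scale genes' geometric mean, Trem2 went from 1.51 to 2.82% in fed WT to 14.2 to 15.8% in fed Vps15LKO, and Cd68 from 93.2 to 115% to 297 to 342%. Of the resident genes 0 of 5 passed with edgeR, where 49.2% of tested genes changed either way, and 1 had an unadjusted p under 0.05. DESeq2 was not run on this scale. Their log2 differences were 0.09 for Timd4 (SE 0.220), 0.10 for Vsig4 (SE 0.216), 0.23 for Clec4f (SE 0.219) and 0.31 for Marco (SE 0.265). Cd5l was at 0.46 (SE 0.223, adjusted p = 0.0844) and Adgre1 at 0.04 (SE 0.218). Over all alternatives Cd5l ran from 0.30 to 0.54 with adjusted p from 0.0314 to 0.227, so whether it passed depended on the processing. With the 7 named genes alone as the scale, Vsig4, Timd4 and Adgre1 were at -0.06, -0.06 and -0.12, and the same 4 genes passed, where 7.12% of tested genes were higher. All tested genes had a median of -0.53 on the pan-macrophage scale.

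In fasted livers on the same scale, 5 members were higher in Vps15LKO, where 5.51% of tested genes were. Gpnmb differed by 6.36 (SE 0.423), Cd68 by 2.82 (SE 0.248), Trem2 by 2.25 (SE 0.345), Marco by 1.69 (SE 0.281) and Ccr2 by 1.30 (SE 0.409, adjusted p = 0.00449). The call for Ccr2 was lost with the 7 named genes alone as the scale (0.84, adjusted p = 0.0548) and without fasted WT c (0.90, adjusted p = 0.0582). The resident genes other than Marco did not pass, at 0.10 for Clec4f (SE 0.221), 0.19 for Timd4 (SE 0.229), 0.21 for Vsig4 (SE 0.219) and 0.27 for Cd5l (SE 0.224). With the 7 alone these 4 were at -0.37, -0.27, -0.25 and -0.20, and Adgre1 moved from 0.18 to -0.28, while Gpnmb, Cd68, Trem2 and Marco passed, where 3.59% of tested genes were higher. The median of all tested genes in fasted liver was -1.53 on the pan-macrophage scale.

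Fasting changed few members on this scale. In WT, Marco fell by 1.10 (SE 0.278, adjusted p = 0.000625), where 1.62% of tested genes fell, and the others ranged from -0.52 for Gpnmb to 0.22 for Trem2. Adgre1 was near the threshold there, at -0.48 (SE 0.228, adjusted p = 0.0526). With the 7 alone as the scale Marco was at -0.83 (adjusted p = 0.00537) and the others at -0.25 to 0.49. The median of all tested genes was 1.35 in WT and 0.35 in Vps15LKO. In Vps15LKO, Cd68 rose by a log2 of 1.01 (SE 0.231, adjusted p = 0.0115), where 3.79% of tested genes rose. Its share of the scale genes' geometric mean was 297 to 342% fed and 468 to 734% fasted, without overlap. The call for Cd68 was lost without fed Vps15LKO a or c, or fasted Vps15LKO a or c (log2 0.91 to 1.06, adjusted p 0.0523 to 0.100). Ccr2 was at -0.84 in Vps15LKO (SE 0.294, adjusted p = 0.0875, and 0.0315 to 0.370 over all alternatives). The remaining members there ranged from -0.34 for Adgre1 to 0.27 for Marco.

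**Figure D3:**
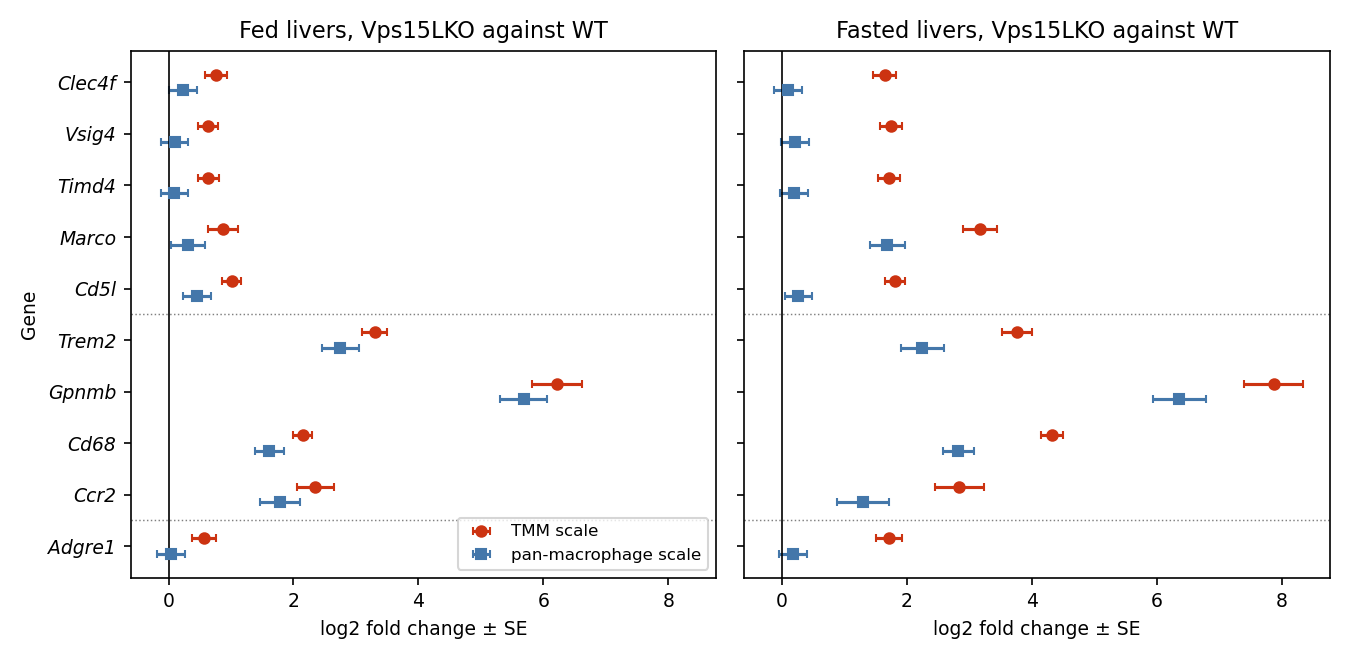
Log2 fold change of Vps15LKO against WT for each gene in fed (left) and fasted (right) livers, on the TMM scale (circles) and the pan-macrophage scale (squares), with standard errors. On the second scale most resident genes lie within 0.46 of 0, apart from Marco in fasted liver, while Gpnmb stays above 5.

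The balance of the marker groups was described by their summed CPM in each library. The 5 resident genes summed to 677, 772 and 756 in fed WT, 211, 305 and 282 in fasted WT, 1288, 1296 and 1425 in fed Vps15LKO and 943, 1169 and 855 in fasted Vps15LKO. The 4 recruited or lipid-associated genes summed to 90.1, 116 and 115, then 30.8, 38.3 and 39.5, then 776, 624 and 964, and 1113, 817 and 931, in the same order. Their share of the sum of all 9 was 11.7 to 13.2% in fed WT, 11.2 to 12.7% in fasted WT, 32.5 to 40.3% in fed Vps15LKO and 41.1 to 54.1% in fasted Vps15LKO. The WT groups overlapped and the Vps15LKO groups did not overlap them or each other. Cd68 and Gpnmb together make up most of the recruited sum in Vps15LKO. In WT most of it is Cd68 alone, at a mean of 97.9 CPM fed and 33.2 fasted, where Gpnmb was at 4.25 and 1.13. With every gene weighted alike, the mean log2 CPM of the 4 less that of the 5 was -4.22 to -3.80 in fed WT, -4.31 to -3.56 in fasted WT, -1.5 to -1.10 in fed Vps15LKO and -1.59 to -1.02 in fasted Vps15LKO. By this measure the fed and fasted mutants overlapped.

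**Figure D4:**
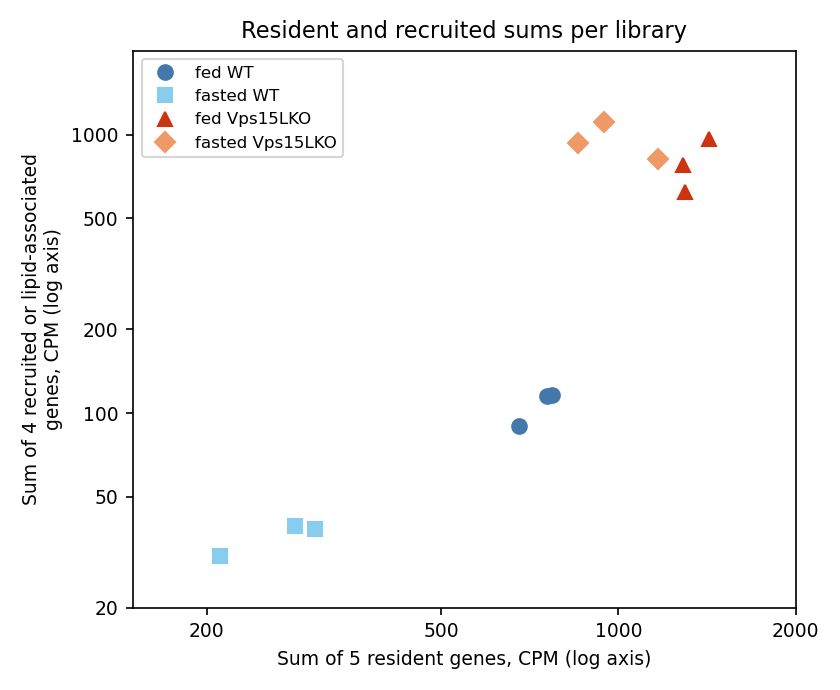
Summed CPM of the 5 resident genes (horizontal, log axis) against that of the 4 recruited or lipid-associated genes (vertical, log axis), with a point for each library. WT libraries run from 30.8 to 116 on the vertical axis, and Vps15LKO libraries from 624 to 1113.

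Other genes of the same programs were counted from lists, which were also chosen with earlier results of these data known. Of all tested genes 14% fell with fasting in WT and 1.39% changed with fasting in Vps15LKO. In fed and fasted Vps15LKO 23.4% and 28.2% were higher than in WT. Of 14 other resident Kupffer cell genes, 11 fell with fasting in WT, 0 changed with fasting in Vps15LKO by edgeR (6 had an unadjusted p under 0.05, and DESeq2 called 2), 9 were higher and 2 lower in fed Vps15LKO than in fed WT, and 12 were higher and 2 lower in fasted Vps15LKO. Spic, a transcription factor of iron-recycling macrophages, fell by 2.37 (SE 0.270) with fasting in WT and was higher by 2.67 (SE 0.262) in fasted Vps15LKO. Siglec1, the sialic acid receptor CD169, fell by 1.74 (SE 0.227) and was higher by 2.65 (SE 0.230) in the same comparisons. Library sizes alone as the scale gave 11 higher and 2 lower in fed livers and 12 higher and 1 lower in fasted livers.

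Of 16 other lipid-associated macrophage genes, 12 were higher and 0 lower in fed Vps15LKO than in fed WT, with a median of 1.28. In fasted liver 14 were higher and 0 lower, with a median of 2.12. Among all tested genes 23.4% and 28.2% were higher. Cd63, a tetraspanin of late endosomes, went from 5.27 ± 1.20 CPM (SD, n = 3) in fed WT to 99.4 ± 14.9 in fed Vps15LKO. Cd9, another tetraspanin, went from 8.42 ± 0.734 to 139 ± 31.3 CPM, and Lgals3, which encodes galectin-3, from 24.3 ± 3.06 to 124 ± 36.5. With fasting in WT, 9 of the 16 fell, where 14% of tested genes fell, and Ctsl, a lysosomal protease, rose by 0.91 (SE 0.125). Cd9 and Cd63 did not pass there, at 0.15 (SE 0.230) and 0.06 (SE 0.317).

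All 7 genes of TREM2 signalling and shedding were higher in fasted Vps15LKO than in fasted WT, and 5 of 7 in fed liver. Among all tested genes 28.2% and 23.4% were higher. The medians of the 7 were 1.68 fasted and 0.92 fed, beside 1.69 and 0.54 for the 8 pan-macrophage genes. Tyrobp, the adaptor DAP12, differed by 0.76 (SE 0.176) fed and 1.73 (SE 0.188) fasted, and Inpp5d, a phosphatase that restrains the receptor's signal, by 1.09 (SE 0.112) and 2.00 (SE 0.121). Trem2 itself differed by 3.30 and 3.76 in the same comparisons. With fasting 6 of the 7 fell in WT and 2 in Vps15LKO, where 14% and 0.599% of tested genes fell.

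Both tested ligands of CCR2 were higher in Vps15LKO, fed and fasted, where 23.4% and 28.2% of tested genes were. Ccl2, the main chemokine for monocytes, was at 5.92, 3.38 and 3.56 CPM in fed WT, 1.03, 1.25 and 0.687 in fasted WT, 50.6, 83.0 and 57.8 in fed Vps15LKO and 127, 89.4 and 161 in fasted Vps15LKO. It was higher in Vps15LKO by a log2 of 3.89 (SE 0.272) fed and 6.96 (SE 0.344) fasted, fell by 2.09 (SE 0.432) with fasting in WT and rose by 0.98 (SE 0.217, adjusted p = 0.0405) with fasting in Vps15LKO, where Ccr2 fell. Ccl7 had 0 counts in the 3 fasted WT libraries and 179, 175 and 273 in fasted Vps15LKO, at least 38.9-fold higher against a floor of 3 counts per library. In fed livers Ccl7 was higher in Vps15LKO by a log2 of 3.37 (SE 0.486). Ccl12, with 0 to 10 counts per library, did not pass the filter.

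Monocyte genes were higher in Vps15LKO for 10 of 11 tested in fed liver and 11 of 11 in fasted liver. Of all tested genes, 23.4% and 28.2% were higher. The medians of the monocyte genes were 2.95 and 4.44 (3.84 with Vcan and F13a1, at 0 counts in fasted WT, set to their bounds). Chil3, a chitinase-like protein of myeloid cells, was at 1.13 ± 0.569 CPM in fed WT and 39.1 ± 5.72 in fed Vps15LKO. Ly6c2, the surface protein that marks inflammatory monocytes, was at 3.24 ± 0.945 and 25.1 ± 8.23 CPM. With fasting in Vps15LKO 1 of the 11 fell, F13a1, by 0.83 (SE 0.184, adjusted p = 0.0459), where 0.599% of tested genes fell.

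Ligands by which hepatocytes, stellate and endothelial cells maintain Kupffer cells were counted too. Of 8, 3 were higher in fasted Vps15LKO than in fasted WT and 2 in fed Vps15LKO than in fed WT. These shares are near those of all tested genes, 28.2% and 23.4%. By edgeR 0 were called lower, while 1 in fasted and 2 in fed liver were lower at an unadjusted p under 0.05. Csf1, a growth factor of macrophages, was at 83.7 ± 25.1 CPM in fed WT, 13.9 ± 3.68 in fasted WT, 74.3 ± 17.2 in fed Vps15LKO and 84.1 ± 2.43 in fasted Vps15LKO. It fell by 2.58 (SE 0.238) with fasting in WT. Il34, the other ligand of the CSF1 receptor, was at 6.24 ± 1.08, 5.56 ± 0.200, 15.2 ± 0.518 and 24.0 ± 6.85 CPM in the same order and was higher in Vps15LKO by 1.28 (SE 0.204) fed and 2.10 (SE 0.211) fasted. Tgfb1, a cytokine of many cell types, was higher by 0.67 (SE 0.117) and 1.34 (SE 0.121).

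Lysosome genes, which are expressed in hepatocytes as well, did not follow Cd68 and Gpnmb in size. Of 16, 12 were higher and 2 lower in fed Vps15LKO, with a median of 0.67. In fasted Vps15LKO 11 were higher and 3 lower, with a median of 0.66. Of all tested genes, 23.4% and 28.2% were higher. With library sizes alone as the scale, 14 were higher and 1 lower in fed liver and 13 higher and 1 lower in fasted liver. Gla, the lysosomal alpha-galactosidase, differed by 1.91 (SE 0.182) fed and 2.23 (SE 0.191) fasted. Npc2, which carries cholesterol in lysosomes, differed by 0.90 (SE 0.0987) and 1.44 (SE 0.101).

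Markers of other cells were counted beside the members, and their part in the members' changes was not tested. In fasted Vps15LKO against fasted WT, 8 of 9 tested neutrophil, 2 of 5 T and NK, 1 of 3 B and 2 of 5 dendritic cell markers were higher and 0 lower, where 28.2% of tested genes were higher. Apart from the neutrophil markers, these shares rest on 1 or 2 genes and are not set apart from that background. In fed Vps15LKO against fed WT, 5 of 9 neutrophil and 3 of 5 dendritic cell markers were higher, where 23.4% of tested genes were. There edgeR called 0 of 3 B cell markers, with 0 at an unadjusted p under 0.05 and 0 by DESeq2. Of 5 T and NK cell markers 0 were higher and 1 was lower, which DESeq2 did not call. The summed CPM of neutrophil markers was 20.4 to 37.3 in fed WT, 4.63 to 6.60 in fasted WT, 49.4 to 62.4 in fed Vps15LKO and 25.1 to 51.3 in fasted Vps15LKO, and Ly6g was at 0 counts in all 6 WT libraries. In fasted Vps15LKO against fasted WT, 6 of 6 cholangiocyte markers were higher. Their sums were 21.0 to 28.6 CPM in fasted WT and 145 to 246 in fasted Vps15LKO. Proliferation genes were higher there for 8 of 8, with sums of 3.22 to 4.26 and 26.4 to 36.9 CPM. Between fed livers 2 of 6 cholangiocyte markers were higher and 1 lower in Vps15LKO, and 8 of 8 proliferation genes were higher. Between fasted livers, 3 of 8 sinusoidal endothelial markers were higher and 2 lower, and 3 of 8 stellate markers higher and 1 lower. Of 5 tested erythroid markers 1 was higher and 2 were lower there. Of all 23875 tested genes 6722 were higher and 6700 lower, so these splits are near the background. With library sizes alone as the scale these 3 splits were 5 to 1, 7 to 0 and 2 to 2.

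Likeness between genes was described by Pearson's r of log2(CPM + 0.5) over the 12 libraries, which fall into 4 groups, so r mostly reflects the group means. Resident genes had r of 0.91 to 0.99 with each other, and recruited or lipid-associated genes 0.87 to 0.98. Between the groups r was 0.78 to 0.94. Adgre1 had r of 0.92 to 0.98 with resident genes and 0.71 to 0.86 with the others. The genes most like Clec4f were Csf3r, Axl, Tyrobp, Sdc3 and Cfp, with r of 0.99. Those most like Cd68 were Lgals3, Actn1, G6pdx, Sptlc2 and Prkcd, those most like Gpnmb were Renbp, Chil3, Cyp4f18, Cap1 and Fst, and those most like Trem2 were Coro2a, Gpr35, Gpx2, Nxf7 and Phlda3. For Timd4 they were Swap70, Treml4, Cd86, Fam110a and Fam49a, and for Ccr2 Krt80, Atp8b4, Fmnl1, Kifc1 and Prag1, with r of 0.97 to 0.98.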

How the data were processed

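The authors deposited raw counts per gene for 12 liver libraries. Per the submitters' processing notes, HISAT2, Subread, DESeq2, edgeR and the build mm10 were used. Versions and strand settings are not given in the sources used here. The 24 fibroblast libraries of the series were not used. Of 136300 genes, 87774 have NONCODE identifiers (20.5 to 24.8% of counts), for which no positions were used, so reads they share with members were not examined. No GENCODE M21 gene overlaps a member. A symbol was matched for 48058 of 48526 Ensembl identifiers. No replicate number appears in the column names, so libraries are called a, b and c. Replicates differed by a chi-square of 6.59 to 14.6 per degree of freedom, more than counting noise alone gives.

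After filterByExpr (23875 genes left), TMM scaling (factors 0.801 to 1.22) and a fit of 1 mean per group over all 12 libraries, contrasts were tested with the quasi-likelihood F test of edgeR 4.0.16 and called at 0.05 after Benjamini-Hochberg adjustment over every gene tested. Standard errors follow from F and the log2 change. The pan-macrophage scale replaced TMM by offsets. Alternatives were DESeq2 1.42.0, RLE factors, library sizes alone, no filter, Ensembl genes alone, only the groups compared, other macrophage genes as the scale and each library left out. Robust moderation and the scale of 7 genes were chosen after seeing the data. The fits were tested on simulated data with known changes for Vps15LKO against WT in fed liver, and for no other contrast. There edgeR recovered 72 of 100 changes of log2 1 and 95 of 100 of log2 2, with 6 false calls.

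The members and lists were chosen with earlier results of these data known. Genes were named by a rule: all members, the 8 scale genes, Pik3r4, up to 4 genes of each list described with the smallest adjusted p in the contrast described, and the 5 genes most like each of 6 members. Some genes that the rule selects are not reported here. Values of such genes in a second contrast are given beside the first.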

Additional observations from a re-analysis of the deposited data

Results flagged for a closer look

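For 7 members the fasting response differed between the genotypes by the test of the interaction (edgeR, adjusted p under 0.05). The log2 difference, Vps15LKO less WT, was 0.88 for Clec4f, 1.12 for Vsig4, 1.08 for Timd4, 2.31 for Marco, 0.80 for Cd5l, 2.18 for Cd68 and 1.15 for Adgre1. The same test passed upward for 7 of the 8 pan-macrophage genes, whose median was 1.17.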

How the results depend on the processing

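Over all alternatives, 892 of 940 refits of single members stayed on the same side of the threshold. Of the others, 29 lost a call, 19 gained a call and 0 reversed a called value. Values under no call that changed sign were counted among the 892. On the pan-macrophage scale these counts were 748 of 760, 6, 6 and 0. The number of members changed by fasting in Vps15LKO was the least stable, against 1 as reported: it was 2 with library sizes alone, 5 each with DESeq2 and with no filter, 3 when Ensembl genes were taken alone, 2 with robust moderation, 0 with only the groups compared and 0 to 5 with a library left out. All tested genes changed there numbered 332, and 932 with DESeq2, 1558 when no filter was used, 518 when Ensembl genes were taken alone and 27 with only the groups compared. They were 4 to 1242 with a library left out: 4 without fasted Vps15LKO a or c, 15 without fed Vps15LKO a, 51 without fed Vps15LKO c, 204 without fasted WT c, 210 without fasted WT b and 1242 without fasted Vps15LKO b. The causes were not tested.

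With a library left out, members changed numbered 8 to 10 for fasting in WT (8 without fed WT c), 9 to 10 for genotype in fed liver, 10 to 10 in fasted liver and 5 to 7 for the interaction. On the pan-macrophage scale they numbered 1 to 2 and 0 to 1 for fasting in WT and Vps15LKO and 4 to 4 and 4 to 5 for genotype in fed and fasted liver. There, 2 members passed for fasting in WT with C1q genes as the scale, and 2 for fasting in Vps15LKO with only the groups compared. Genes changed with a library left out numbered 4643 to 6463 for fasting in WT, 9569 to 11387 and 12359 to 13640 for genotype in fed and fasted liver, and 2086 to 2938 for the interaction. Gpnmb lost its call for fasting in WT with robust moderation (adjusted p = 0.0783, and 1.20e-11 to 0.0968 over all alternatives).

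Library sizes alone, in place of TMM, moved the median log2 change of all genes to -0.19 and -0.07 for fasting in WT and Vps15LKO, 0.39 and 0.52 for genotype in fed and fasted liver, and 0.15 for the interaction. It turned the split of genes from 5577 higher and 5483 lower to 9968 and 3092 in fed liver, from 6722 and 6700 to 11731 and 3576 in fasted liver, from 2957 and 3333 to 1788 and 5216 for fasting in WT, from 189 and 143 to 160 and 275 for fasting in Vps15LKO, and from 1517 and 1362 to 2232 and 1006 for the interaction. No paired analysis was possible because the liver columns carry no replicate number. Depth limits Trem2, Gpnmb and Ccr2 in fasted WT, at 3 to 12 counts per library.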
